A study of Mus musculus with 6 samples.

Results

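The mouse ventricle that lacks Klf15 was followed from 4 weeks of age (4w), shortly after weaning, to 20 weeks (20w), full adulthood. The comparison takes the 3 libraries of Klf15 loss-of-function hearts (KO) at 20w against the 3 KO libraries at 4w, 6 of the 18 libraries of the series. It covers every gene with a mean of at least 10 over the 18 libraries, 13032 of 24391 gene entries. All mice were C57BL/6 and the RNA came from cardiac ventricles. The 3 wild type (WT) libraries at each of the same ages served as the reference for ordinary ageing. The series also holds WT and KO libraries of postnatal day 10, which enter here through the shared estimate of the spread and through the filter on the mean. Of the tested genes, 247 had a mean under 10 over the 12 libraries of 4w and 20w, and of these 1 was called higher and 36 lower in KO. Among sex-linked genes, Xist was at most 9.4 and Ddx3y at least 2397 in the 12 libraries of 4w and 20w, a male pattern. The sources used here do not give the sex of the mice, the kind of Klf15 mutation, the hour of collection or whether each library came from its own animal. The p-values therefore measure the spread between libraries, part of which may be technical.

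KLF15, a Krüppel-like transcription factor, is known in heart and muscle for its part in the use of amino acids and lipids and for restraining hypertrophic growth. Soon after birth, in the mouse largely before weaning, cardiac myocytes stop dividing and fatty acids become the main fuel. Less new matrix is laid down towards adulthood. Under load, cardiac myocytes are known to switch on a set of fetal and mechanical stress genes, which includes skeletal actin, natriuretic peptides and ankyrin repeat proteins of the sarcomere.

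The KO libraries held 10606562 to 27094216 reads assigned to genes. Values are normalized counts, and changes are differences of log2(value + 1). Rn45s, a ribosomal RNA gene, took 30.8% of the second 4w KO library, against at most 1.7% in the other KO libraries of these ages. The gene Lars2 also stood out in the second 4w KO library, with 1.78% of it, against at most 0.0876% in the other KO libraries of these ages. Klf15 itself stood at 54.8, 28.4 and 43.5 in the 4w KO libraries and at 43.4, 43.9 and 32.8 at 20w, against means of 1078 and 1022 in WT. The KO values overlapped between the ages and did not pass the test (log2 change -0.04, limma adjusted p = 0.92). Markers of cardiac muscle were high in every KO library, with Myh6, the main adult myosin heavy chain, at 414069 or more and Tnnt2, cardiac troponin T, at 43157 or more. The ventricular light chain Myl2 stood at 89895 or more. The atrial light chain Myl7 stood at 341 to 454 at 4w and at 261 to 382 at 20w. In the KO libraries the listed lung genes stood at 4.06 (Ager) or less, with Sftpc at 0. Lymphocyte genes were low, with Cd3e at most 2.85 and Cd8a, the highest at 4w, at most 29.5. Of the fast skeletal muscle genes Myh4 was at most 4.06, whereas the light chain Myl1 stood at 198 to 241 at 4w and at 156 to 241 at 20w. In whole tissue, fewer cells of a type and less RNA per cell cannot be told apart.

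Many genes moved between the ages in the KO ventricle. Of 13032 genes, 2514 (19.3%) were called at a Benjamini-Hochberg adjusted p under 0.05 by limma, 1235 (9.48%) higher and 1279 (9.81%) lower at 20w. The median log2 change over all genes was -0.009. The values of the 2 ages did not overlap in 4239 genes (32.5%). Most called changes were moderate, with a median size of 0.51 on the log2 scale, and 461 called genes passed a log2 change of 1, of which 195 rose and 266 fell. Without the second 4w KO library 1844 genes were called, 1741 of them among the 2514. Each library was also scaled to a common total instead of the authors' size factors. That total included Rn45s, which took 30.8% of the second 4w KO library. With it 1219 genes were called, 804 higher and 415 lower. That scaling raised the share of higher calls from 49.1% to 66%.

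The genes with the highest changes coded for adhesion proteins, a ketone enzyme, Z-disc proteins and a channel subunit. Cdh4, the cell adhesion protein R-cadherin, stood at 13.5, 6.09 and 10.5 in the 4w KO libraries and at 413, 272 and 278 at 20w. Cpxm2, of the carboxypeptidase X family, went from 35.4, 46.7 and 42.5 to 1027, 911 and 1370. Bdh1, the mitochondrial enzyme that interconverts beta-hydroxybutyrate and acetoacetate, went from 36.2, 32.5 and 42.5 to 894, 628 and 1151. In all of them every 20w library lay far above every 4w library. Ages that did not overlap were a condition for the 12 highest and the 12 lowest genes, so their separation is no separate result. The log2 changes were 4.90 ± 0.28 (SE) for Cdh4 (adjusted p = 1.3e-09), 4.69 ± 0.22 for Cpxm2 (adjusted p = 4.6e-11) and 4.52 ± 0.29 for Bdh1 (adjusted p = 9.4e-09). WT ventricles moved the same way, by 4.29, 3.21 and 2.53. The KO change minus the WT change was 1.47 for Cpxm2 and 1.99 for Bdh1, and neither passed the test (both adjusted p = 0.053). Bdh1 in WT was already at a mean of 342 at 4w and reached 1928 at 20w, so the 20w KO level lay between the WT levels of the ages.

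Scn4b, a beta subunit of voltage-gated sodium channels, rose from 59.8, 91.3 and 53.5 to 626, 350 and 456 (2.79 ± 0.42, adjusted p = 0.0001). At both ages it was below its WT means of 386 and 1596. Myot, the Z-disc protein myotilin, rose from 280, 452 and 319 to 2230, 2091 and 2987 (2.81 ± 0.19, adjusted p = 1.2e-08). Other high risers were Cds1, a CDP-diacylglycerol synthase (2.70), Acsm5, a medium-chain acyl-CoA synthetase (2.66), and Prune2 (2.58). Their KO values did not overlap between the ages, by the same selection, and WT rose for each, by 2.22, 2.93 and 1.92.

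Among the genes that fell most, Lrat, which esterifies retinol for storage, went from 452, 428 and 395 at 4w to 27.2, 27.2 and 28.5 at 20w. The libraries of each age lay close together, and the log2 change was -3.89 ± 0.36 (adjusted p = 6.7e-07), beside -4.41 in WT. Ddc, aromatic amino acid decarboxylase, fell from 147, 191 and 174 to 17.9, 32.4 and 35.6 (-2.58 ± 0.18, adjusted p = 2.5e-08). Stbd1, a glycogen-binding protein, fell from 389, 390 and 295 to 88.5, 100 and 24.2 (-2.54 ± 0.34, adjusted p = 3.2e-05). Its lowest value was that of the third 20w KO library, and without that library the change was -1.90. Abhd1, an alpha/beta hydrolase, fell from 52.3, 79.1 and 80.2 to 11.9, 16.7 and 7.12 (-2.51 ± 0.32, adjusted p = 1.7e-05), where the WT means of 306 and 234 gave a change of -0.44 that did not pass the test. The difference between the genotypes for Abhd1 did not pass either (-2.07, adjusted p = 0.063). Lpar3, a receptor for lysophosphatidic acid, fell by 2.36 on the log2 scale. Tnni1, the slow skeletal troponin I of the fetal heart, was low at 4w (11, 20.3 and 11) and at 0.85, 2.09 and 0 at 20w (-3.02, adjusted p = 0.0006). That call was lost with edgeR (adjusted p = 0.12). Tnni1 had a mean of 687 over the 18 libraries and of 5.88 over the 12 of 4w and 20w, so it passed both the minimum of 10 and that of 50 for naming through the day 10 libraries. Of the 12 lowest genes, 6 others reached the minimum of 50 only with day 10, namely Birc5, Ube2c, Lpar3, Hist1h2ab, Hist1h2bg and Hist1h3b, with means of 14 to 28.8 over the 12 libraries. The other genes among the 12 lowest, 4 histone genes with Birc5 and Ube2c, are described with the cell cycle.

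**Figure D1:**
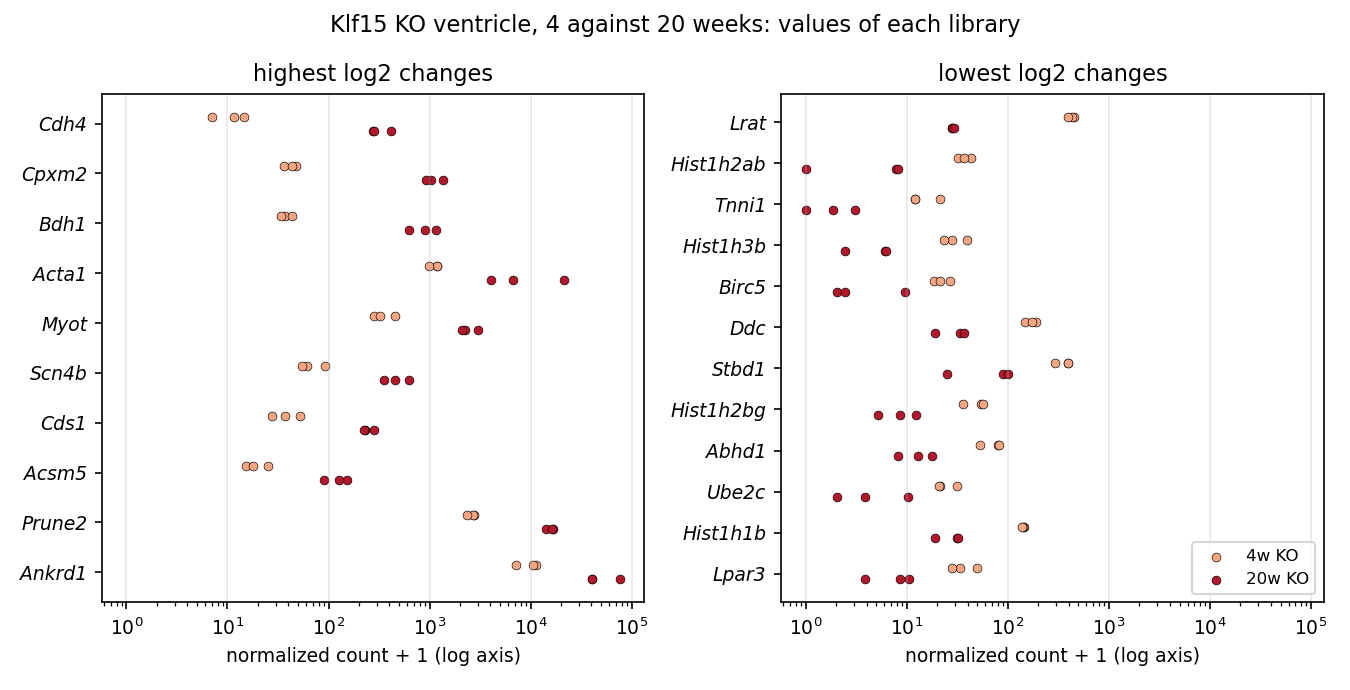
Normalized count + 1 on a log axis for each KO library (light points 4w, dark points 20w, 3 libraries each) of genes with the highest and the lowest log2 changes. Only genes whose ages did not overlap were eligible, so the 20w libraries lie apart from the 4w libraries in every gene by selection. The spread at 20w is widest for Acta1 among the genes that rose.

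Several stress genes of the myocyte rose, led by Acta1 and Ankrd1. Of 19 tested genes on a list of fetal and hypertrophic stress genes, 8 rose and 2 fell, with a median log2 change of 0.62 beside -0.009 over all genes. In WT 4 rose and 3 fell, with a median of 0.13. The 8 that rose in KO were Acta1, Ankrd1, Ankrd23, Xirp2, Nppb, Fhl1, Rcan1 and Csrp3, and the 2 that fell were Acta2, smooth muscle actin, and Tnni1, which was tested only through its day 10 level. Leaving out any KO library left 8 or more of the list higher, but the median fell to 0.25 without the third 20w KO library.

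The start regions of 3 of the stress genes are shown because their promoters carry the M-CAT core, the letters CATTCC or, on the other strand, GGAATG, known as a binding sequence of TEAD factors in muscle genes. Each run is the 250 bases before the first start site that RefSeq lists (GRCm38.p6), written from 5′ to 3′ on the gene's strand, with the motif in capitals. Acta1 lies at chr8:123894776-123895025 on the minus strand, Ankrd1 at chr19:36119845-36120094 on the minus strand and Nppb at chr4:147985650-147985899 on the plus strand.
Acta1: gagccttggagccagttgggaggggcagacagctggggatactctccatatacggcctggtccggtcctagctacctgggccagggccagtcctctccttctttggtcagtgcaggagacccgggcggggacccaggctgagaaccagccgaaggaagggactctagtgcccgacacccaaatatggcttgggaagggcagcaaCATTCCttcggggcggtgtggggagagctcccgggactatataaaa
Ankrd1: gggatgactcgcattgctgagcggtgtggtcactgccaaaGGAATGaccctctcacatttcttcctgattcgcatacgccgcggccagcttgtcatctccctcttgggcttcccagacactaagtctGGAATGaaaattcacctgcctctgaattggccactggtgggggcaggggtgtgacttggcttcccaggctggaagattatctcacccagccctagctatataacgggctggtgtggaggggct
Nppb: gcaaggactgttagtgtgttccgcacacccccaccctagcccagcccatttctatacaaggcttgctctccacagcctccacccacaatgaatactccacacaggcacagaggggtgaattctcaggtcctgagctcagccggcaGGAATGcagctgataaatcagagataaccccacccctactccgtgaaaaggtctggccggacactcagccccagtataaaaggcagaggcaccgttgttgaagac
The motif began 46 bases before the start in Acta1, 210 and 123 bases before it in Ankrd1 and 105 bases before it in Nppb. Of the 18 tested stress genes with a promoter in the table, 6 (33.3%) held the motif in this window. The share was 10.7% among the 9818 tested genes with a promoter and 12.6% among all 27025 promoters. Such matches describe letters and not bound sites.

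Acta1, skeletal alpha actin, stood at 1185, 1191 and 991 in the 4w KO libraries and at 6698, 4085 and 21361 at 20w. All 20w values lay above all 4w values, and the third 20w library stood far above the other two. The log2 change was 2.90 ± 0.54 (adjusted p = 0.00081) and became 2.22 without the third 20w KO library. In WT Acta1 did not pass the test (means of 2684 and 2058, log2 change -0.32). The difference between the genotypes was 3.23 ± 0.76 (adjusted p = 0.078), short of the threshold.

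Ankrd1, an ankyrin repeat protein of the sarcomere induced by stretch, rose from 11247, 7221 and 10657 to 40787, 40230 and 76274 (2.39 ± 0.26, adjusted p = 3.2e-06). Its relative Ankrd23 rose from 1257, 1475 and 1452 to 4561, 5139 and 6249 (1.92 ± 0.20, adjusted p = 2.6e-06). Xirp2, an actin-binding protein of the intercalated disc, rose from 23282, 24754 and 21048 to 57047, 59500 and 111072 (1.65 ± 0.19, adjusted p = 4.9e-06). The ages did not overlap in any of these genes, and the third 20w KO library was again the highest. WT rose as well, by 1.02 for Ankrd1, 0.71 for Ankrd23 and 0.96 for Xirp2. The differences between the genotypes were 1.37 (adjusted p = 0.11), 1.21 (adjusted p = 0.078) and 0.69 (adjusted p = 0.28).

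Nppb, which encodes B-type natriuretic peptide and was picked out after its values were seen, rose from 1517, 1199 and 1240 to 2592, 2897 and 4816. The ages did not overlap (1.33 ± 0.33, adjusted p = 0.0076). Without the 4 adult libraries with more than 1% Rn45s, the second of each group, its adjusted p was 0.067. WT means were 925 and 570. Nppa and Myh7, also picked out after their values were seen, did not pass the test. Nppa, atrial natriuretic peptide, stood at 2626, 2650 and 2093 at 4w and at 2623, 2648 and 9024 at 20w, so that 1 library alone stood above the rest. Myh7, the slow myosin of the fetal heart, stood at 19622, 8016 and 11802 and then at 13667, 18050 and 20455, with overlapping ages.

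**Figure D2:**
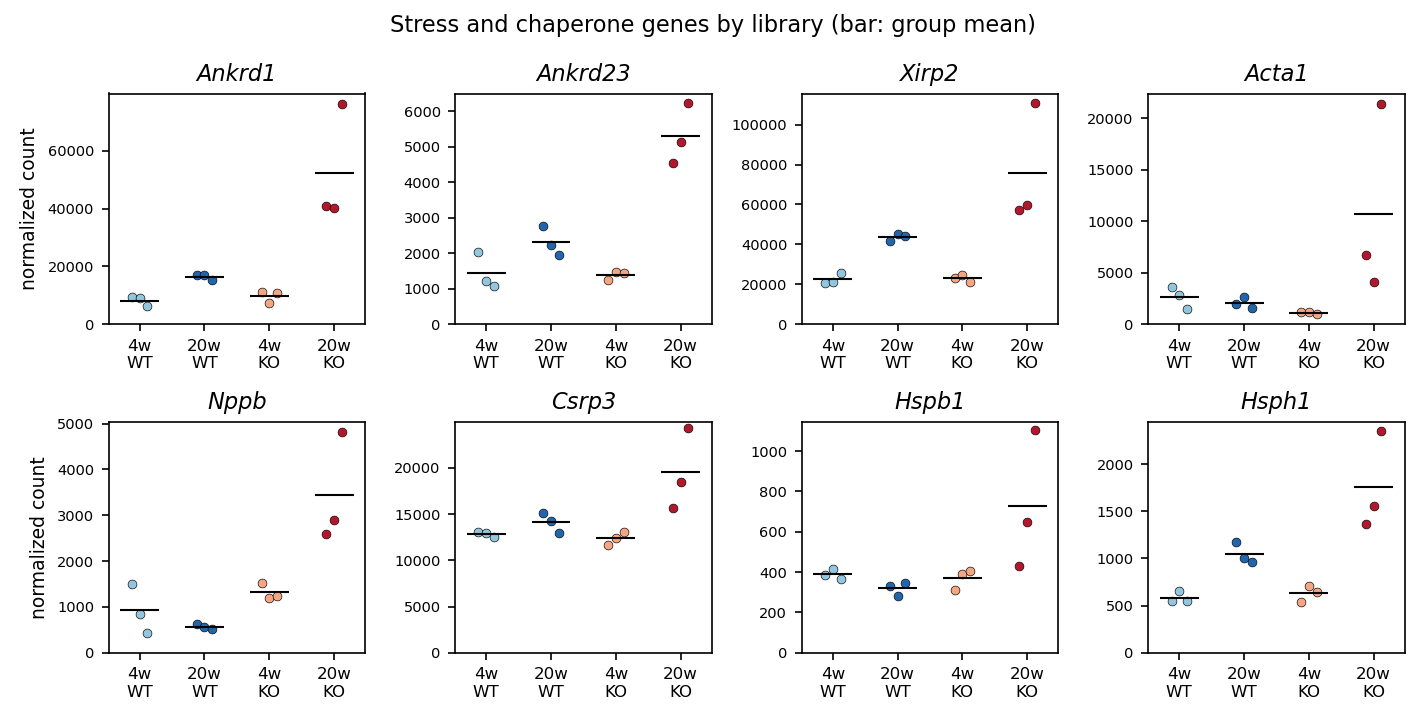
Normalized count of 8 stress and chaperone genes in each library of the 4 adult groups (points) with the group mean (bar), on linear axes that start at 0. The 20w KO mean is the highest of the 4 in every panel, and the third 20w KO library is the highest point of its group in each.

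Contractile and chaperone genes followed. Of 25 tested sarcomere, Z-disc and M-band genes, 11 rose and 0 fell (median 0.25; 6 rose and 2 fell in WT, median 0.09). With edgeR 12 rose and 0 fell. Among the 11 were Myom3 (1.15), Flnc (0.83), Lmod2 (0.78), Myh7b (0.75), Cmya5 (0.56), Ldb3 (0.37), Mybpc3 (0.33), Des (0.33), Pdlim5 (0.30) and Myom1 (0.23). Mybpc3 (cardiac myosin binding protein C) and Des (desmin) lost their calls without the first 4w or the third 20w KO library, Mybpc3 also without the second of either age (adjusted p up to 0.16). Lmod2, leiomodin, which lengthens thin filaments, went from 6993, 5863 and 5770 to 14007, 8319 and 10238 (adjusted p = 0.0018). Cmya5, a costameric protein, went from 36766, 37537 and 35274 to 55056, 55418 and 51130 (adjusted p = 0.0012). The ages were apart in both. The count of 11 fell to 6 without the first 4w KO library, to 5 without the third 20w KO library and to 5 without the libraries with more than 1% Rn45s.

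Of 26 tested heat shock proteins and chaperones, 11 rose and 1 fell, with a median of 0.20 (4 rose and 1 fell in WT, median 0.04). Hsph1, a nucleotide exchange factor of HSP70, stood at 543, 708 and 649 and then at 1368, 1558 and 2356 (1.44 ± 0.15, adjusted p = 2.2e-06). Small heat shock proteins of muscle were among the 11. Hspb8 rose from 6251, 6373 and 6602 to 9712, 9851 and 11044 (0.67, adjusted p = 2e-05), Cryab (alpha B-crystallin) by 0.67, Hspb7 by 0.67 and Hspb6 by 0.50. Hspb1, picked out after its values were seen, rose from 311, 390 and 407 to 429, 647 and 1103 (0.88, adjusted p = 0.0052). No member's change differed between the genotypes at the threshold, with adjusted p of 0.13 for Hspb8, 0.096 for Cryab and 0.1 for Hspb1. The 11 higher calls became 7 without the third 4w KO library or the third 20w KO library, and the 1 lower call (Dnajb5, -0.39) became 3 without the first 4w KO library.

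Most tested genes of cell division fell. Of 41 tested cell cycle and DNA replication genes, 25 fell and 1 rose (Ccnd2, cyclin D2, by 0.36), with a median of -0.92. In WT 24 fell and 2 rose, with a median of -0.84. Between 18 and 24 of the list fell when any KO library was left out. Of 20 tested clustered histone genes 13 fell and 0 rose (median -1.41; 15 and 0 in WT, median -1.20), and edgeR called 15 lower and 0 higher. Among the members with a mean of at least 10 without day 10, 24 of 38 cell cycle genes and 11 of 18 histone genes fell. Histone genes of the clusters are near-identical copies whose reads the authors' counting could split, so single members are uncertain.

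The promoters of 3 cell cycle genes are shown for the CCAAT box, a sequence bound by NF-Y that is common in genes of the G2 and M phases. The letters searched were CCAAT and, on the other strand, ATTGG, both in capitals, and neighbouring boxes may overlap. The runs are again the 250 bases before the first RefSeq start site (GRCm38.p6). Cdk1 lies at chr10:69352913-69353162 on the minus strand, Mki67 at chr7:135716380-135716629 on the minus strand and Ube2c at chr2:164769679-164769928 on the plus strand.
Cdk1: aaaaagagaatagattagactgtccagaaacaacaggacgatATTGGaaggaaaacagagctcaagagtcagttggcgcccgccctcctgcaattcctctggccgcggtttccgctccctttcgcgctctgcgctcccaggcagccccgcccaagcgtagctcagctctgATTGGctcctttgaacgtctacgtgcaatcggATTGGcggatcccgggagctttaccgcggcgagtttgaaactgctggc
Mki67: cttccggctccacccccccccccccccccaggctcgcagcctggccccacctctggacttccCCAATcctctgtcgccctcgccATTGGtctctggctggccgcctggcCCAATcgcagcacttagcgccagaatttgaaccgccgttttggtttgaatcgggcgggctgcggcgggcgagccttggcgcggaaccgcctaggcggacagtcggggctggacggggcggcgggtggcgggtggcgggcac
Ube2c: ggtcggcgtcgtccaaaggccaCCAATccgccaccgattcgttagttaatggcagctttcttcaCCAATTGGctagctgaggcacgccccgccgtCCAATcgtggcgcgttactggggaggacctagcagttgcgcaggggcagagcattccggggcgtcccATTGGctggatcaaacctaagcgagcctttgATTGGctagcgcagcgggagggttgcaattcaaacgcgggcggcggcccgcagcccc
Cdk1 and Mki67 held 3 matches each. Ube2c, which is not on the list, held 6, of which 2 overlap. Of the 30 tested list members with a promoter in the table, 22 (73.3%) held the letters, against 36.2% of the 9818 tested genes and 34.5% of all 27025 promoters.

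Mki67, the proliferation marker Ki-67, stood at 633, 530 and 604 in the 4w KO libraries and at 195, 142 and 145 at 20w (-1.88 ± 0.20, adjusted p = 2.6e-06). Top2a, topoisomerase II alpha, went from 294, 213 and 312 to 95.3, 84.6 and 74.1 (-1.67 ± 0.19, adjusted p = 5.1e-06). Cdk2 went from 278, 256 and 277 to 131, 149 and 148 (-0.92 ± 0.09, adjusted p = 8.4e-07). Every 20w library was below every 4w library in these genes. Prc1, needed for cytokinesis, fell by 1.84 and Cdk1, the mitotic kinase, by 2.14.

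Birc5 (survivin) fell from 17.7, 20.3 and 25.7 to 8.51, 1.04 and 1.42 (-2.61 ± 0.42, adjusted p = 0.0002), and Ube2c, the ubiquitin-conjugating enzyme of the anaphase-promoting complex, from 20.2, 30.4 and 19.9 to 9.36, 1.04 and 2.85 (-2.47 ± 0.48, adjusted p = 0.0011). In both the first 20w KO library was the highest of its age. Without it the changes were -3.30 and -3.10. The linker histone Hist1h1b fell from 143, 140 and 137 to 30.6, 17.8 and 31.3 (-2.40 ± 0.24, adjusted p = 1.3e-06). Hist1h2ab fell by 3.22, Hist1h3b by 2.71, Hist1h2bg by 2.54 and Hist1h2bb by 2.16. Hist1h2ab was at 0 in the second 20w KO library and changed by -2.22 without it.

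Of 18 tested imprinted and fetal growth genes 9 fell, 1 rose and 8 were not called (median -0.29; 11 and 1 in WT, median -0.49). Of the 16 with a mean of at least 10 without day 10, 8 fell. Peg3, an imprinted zinc finger gene, went from 365, 377 and 378 to 158, 157 and 128 (-1.34 ± 0.10, adjusted p = 3.6e-08). Igf2, the fetal insulin-like growth factor, went from 1122, 1120 and 823 to 385, 347 and 291 (-1.58 ± 0.16, adjusted p = 1.2e-06). Mest fell by 1.71 and Plagl1, a zinc finger regulator of imprinted genes, by 1.36. The libraries of the ages were far apart in Peg3 and Igf2.

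**Figure D3:**
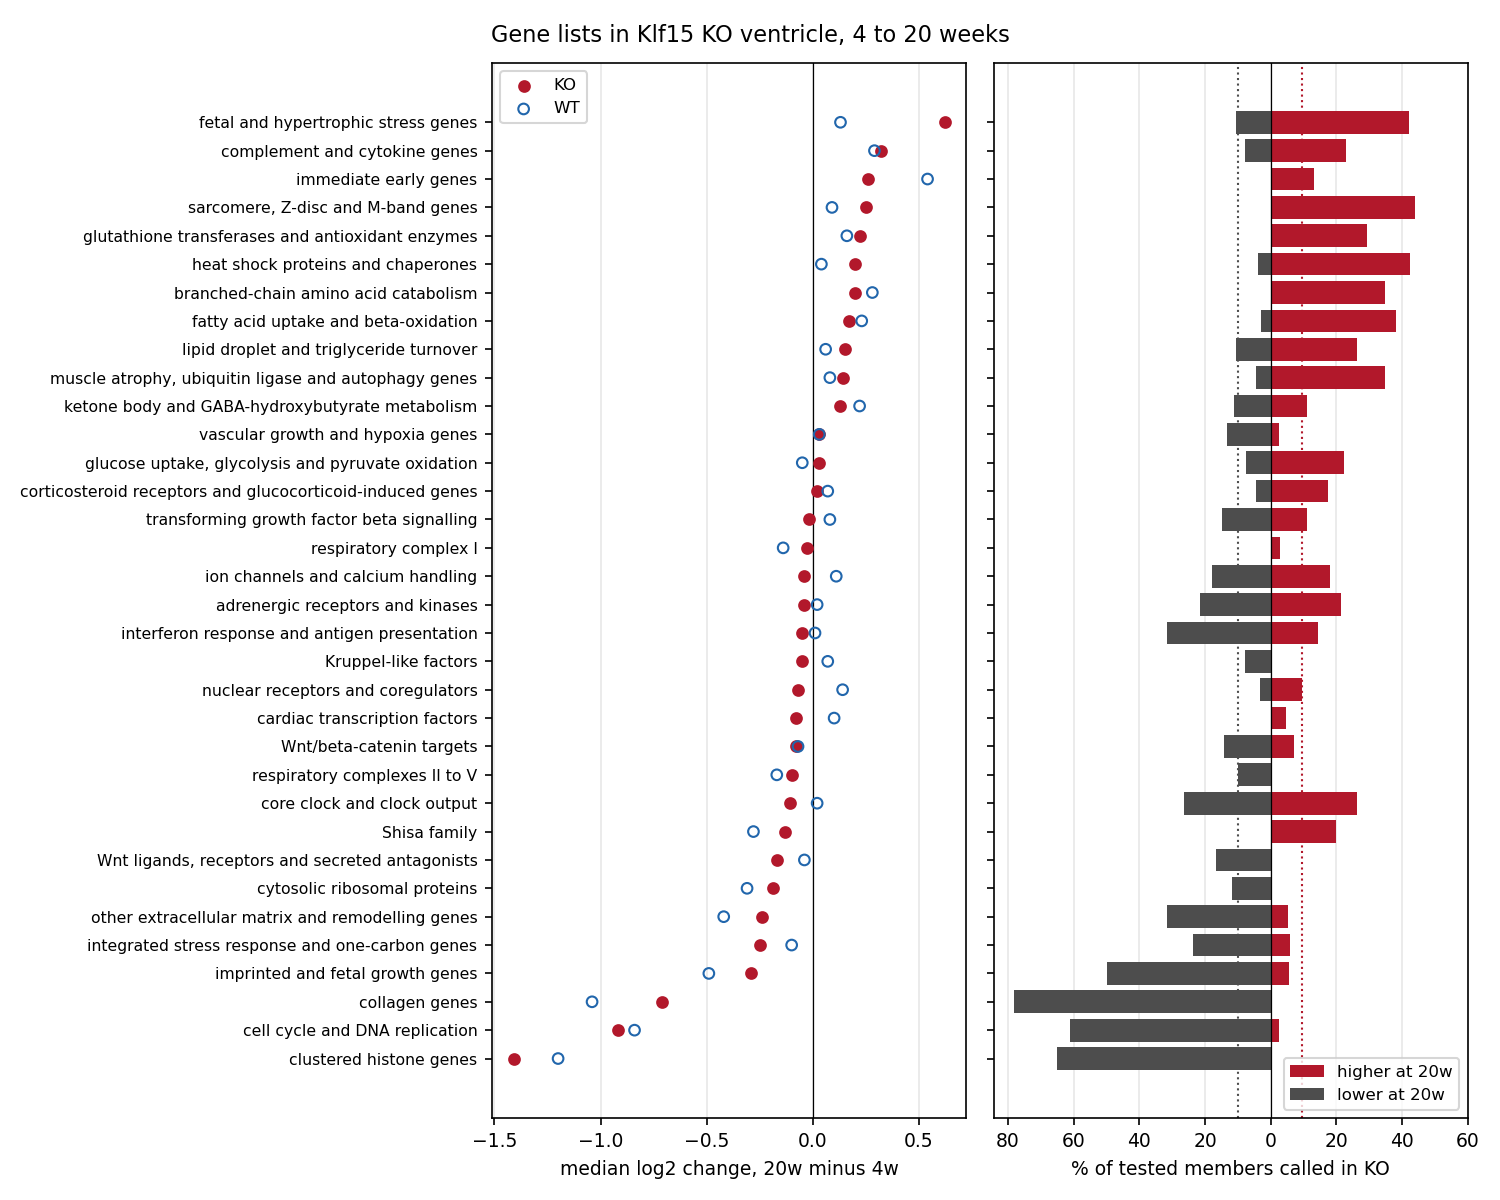
Left, median log2 change from 4w to 20w of the tested members of 34 gene lists in KO (filled) and WT (open). Right, percentage of tested members called in KO, higher at 20w to the right and lower to the left, with dotted lines at the shares over all genes, 9.48% and 9.81%. Stress genes have the highest KO median, and histone, cell cycle and collagen genes the lowest.

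Among matrix genes the collagens fell most widely. Of 23 tested collagen genes 18 fell and 0 rose, with a median of -0.71, and edgeR called 20 lower and 0 higher. In WT 21 fell and 0 rose, with a median of -1.04. Col3a1, a fibrillar collagen of fibroblasts, stood at 6996, 7375 and 8812 and then at 2932, 2142 and 3414 (-1.47 ± 0.14, adjusted p = 1.1e-06). Col4a5, of the basement membrane, stood at 2156, 2236 and 2231 and then at 1128, 1210 and 1222 (-0.90 ± 0.07, adjusted p = 7.9e-08). Both had no overlap between the ages. Col1a1 fell by 1.19 and Col1a2 by 0.96. The difference between the genotypes did not pass for any collagen, with 0.66 (adjusted p = 0.16) for Col3a1.

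Of 38 other matrix and remodelling genes 12 fell and 2 rose (median -0.24; 23 and 1 in WT, median -0.42). Sparc, a matricellular protein, fell from 8491, 9026 and 10033 to 3712, 3540 and 4590 (-1.22, adjusted p = 8.3e-07). Eln, elastin, fell from 410, 371 and 377 to 134, 131 and 113 (-1.62, adjusted p = 1.1e-06). Loxl2, a collagen cross-linking oxidase, fell by 1.18 and the protease Mmp2 by 0.77. Of 15 fibroblast markers, which share Col1a1, Col1a2, Col3a1, Lum and Mfap4 with the matrix lists, 6 fell and 0 rose (median -0.26; 11 and 0 in WT, with -0.68), and the summed level of the list went from 36116 to 42566 at 4w to 28421 to 32246 at 20w. Dcn, decorin, a defining fibroblast marker, stood at 7050 to 7659 and then at 6554 to 7557. Pdgfra stood at 1091 to 1175 and then at 919 to 1099. The part of fibroblast number in the matrix changes was not tested. Within the transforming growth factor beta list 3 of 27 genes (11.1%) rose and 4 (14.8%) fell, beside 9.48% and 9.81% over all genes. The higher count was 1 without the first 4w or the third 20w KO library, and the lower count was 1 without the first or the second 4w KO library and 2 without the first 20w KO library. Fstl1, a secreted follistatin-like protein, fell by 0.84.

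Of the fuel lists, that of fatty acids gave the highest share of higher calls in the main fit, close to the 34.8% of branched-chain amino acid catabolism. The order of these 2 lists was reversed without the second 4w KO library, with 10 of 34 and 8 of 23 higher. It was also reversed with a common total, with 7 of 34 and 6 of 23. Among 34 tested genes for the uptake and beta-oxidation of fatty acids 13 (38.2%) rose, 1 fell and 20 were not called (median 0.17; 10 and 0 in WT, median 0.23). Pdk4, which turns pyruvate oxidation down, went from 1347, 1307 and 1299 to 4179, 2181 and 3581 (1.28 ± 0.21, adjusted p = 0.0003). Ucp3, a mitochondrial carrier, went from 61.5, 75.1 and 72.9 to 351, 197 and 148 (1.63 ± 0.30, adjusted p = 0.00081). The ages were apart in both, and even at 20w the KO libraries stayed below the WT mean at 20w, which was 8088 for Pdk4 and 793 for Ucp3. Acadm, medium-chain acyl-CoA dehydrogenase, rose by 0.48 and the fatty acid transporter Cd36 by 0.53. The 1 gene that fell was Acot1, a cytosolic acyl-CoA thioesterase with near copies in the genome, from 20.2, 12.2 and 14.7 to 7.66, 3.13 and 2.85 (-1.66 ± 0.32, adjusted p = 0.00097). It was picked out after its values were seen, and its WT means were 113 and 111. The count of 13 was 8 without the first 20w KO library, 8 with the library number as a block, 7 with a common total and 5 without the libraries with more than 1% Rn45s.

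Branched-chain amino acid catabolism, a pathway known to depend on KLF15, had 8 of 23 members higher and 0 lower (median 0.20; 11 and 0 in WT, median 0.28), and edgeR called 9 higher and 0 lower. Bckdha, a subunit of the rate-limiting dehydrogenase, went from 1035, 1016 and 1304 to 1417, 2129 and 1490 (0.57, adjusted p = 0.0078). Pcca, of propionyl-CoA carboxylase, went from 619, 586 and 651 to 851, 865 and 782 (0.43, adjusted p = 0.0019). Acat1 rose by 0.32 and Auh by 0.38. The ages did not overlap in Bckdha and Pcca, and their 20w KO values were below the 20w WT means of 3305 and 1270. The count of 8 was 5 without the first 4w KO library, the first 20w KO library or the second 20w KO library, and 2 without the libraries with more than 1% Rn45s.

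Of 27 genes of glucose use 6 (22.2%) rose and 2 (7.41%) fell, with a median of 0.03 (5 and 4 in WT). The shares over all genes were 9.48% and 9.81%. The lower count of the glucose list was 0 without the third 4w KO library and 1 without the second 4w or any 20w KO library. With a common total 3 rose and 0 fell. Pfkfb2, the cardiac enzyme that makes the activator of phosphofructokinase, rose from 2872, 2524 and 2367 to 4363, 3832 and 3947 (0.65 ± 0.09, adjusted p = 4e-05). Pdk1 rose by 0.53 and hexokinase 2 (Hk2) by 0.40, whereas Pgk1 of glycolysis fell by 0.48. The call of Pgk1 was lost without the third 4w, the second 20w or the third 20w KO library (adjusted p up to 0.08). Of 19 lipid droplet genes 5 (26.3%) rose and 2 (10.5%) fell (2 and 1 in WT), and 5 fell without the second 20w KO library. Agpat2, of phosphatidic acid synthesis, rose from 305, 290 and 310 to 478, 505 and 429 (0.64, adjusted p = 4.8e-05). G0s2, an inhibitor of triglyceride lipase, fell by 1.19, and its call was lost without the second 4w KO library or the first 20w KO library (adjusted p up to 0.056). Of 35 complex I genes 1 rose, Ndufb3 (0.24), and 0 fell, a higher share of 2.86% beside 9.48% over all genes. Its call was lost without any 4w KO library or the first or the third 20w KO library (adjusted p up to 0.13). Of 40 genes of complexes II to V 4 (10%) fell, and of 51 cytosolic ribosomal protein genes 6 (11.8%) fell, both near the 9.81% over all genes, and 0 rose in either. In WT 0, 0 and 0 of these lists rose and 6, 10 and 18 fell. The 4 became 1 without the second 4w, the third 4w or the third 20w KO library, and the 6 became 3 without the second or the third 4w KO library. In the ketone body list of 9 genes, Bdh1 rose and the transporter Slc16a1 fell by 0.28 (3 rose and 1 fell in WT). The call of Slc16a1 was lost with a common total (adjusted p = 0.45), without the libraries with more than 1% Rn45s, with the library number as a block, with only the groups compared, and without the second 4w (adjusted p = 0.11) or the first 20w KO library (adjusted p = 0.084). Of 17 integrated stress response and one-carbon genes Shmt1 rose by 0.82 and 4 fell, led by Psat1 of serine synthesis (-0.83; 1 rose and 2 fell in WT). Those 4 became 1 without the third 4w KO library and 2 without the first 20w KO library. Reads of ribosomal protein genes can be shared with pseudogenes.

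Antioxidant and turnover genes gave calls in 1 main direction. Of 34 glutathione transferases and antioxidant enzymes 10 rose and 0 fell, with a median of 0.22 (7 and 2 in WT, median 0.16), and edgeR also called 10 higher and 0 lower. Mgst1, a microsomal glutathione transferase, stood at 338, 361 and 308 and then at 894, 794 and 775 (1.29 ± 0.12, adjusted p = 6.6e-07). Gstm1 stood at 343, 343 and 385 and then at 653, 648 and 678 (0.89 ± 0.11, adjusted p = 9e-06). The ages lay apart by wide margins in both. Nqo1, a quinone reductase, rose by 1.03 and Gsto1 by 0.76. The change of Gstm1 in WT was 0.20 and did not pass, and the difference between the genotypes was 0.68 (adjusted p = 0.063).

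Of 23 atrophy, ubiquitin ligase and autophagy genes 8 rose and 1 fell (median 0.14; 6 and 2 in WT). Murc, a caveolar protein of muscle, went from 1342, 1459 and 1405 to 2647, 2382 and 3007 (0.93 ± 0.08, adjusted p = 1.7e-07). Sqstm1, the autophagy receptor p62, went from 4292, 4305 and 4809 to 7220, 6412 and 7544 (0.66 ± 0.08, adjusted p = 8.9e-06). Both showed no overlap. Gabarapl1, of autophagosome membranes, rose by 0.80 and Wipi1 by 0.52. Fbxo32, the muscle ubiquitin ligase atrogin-1 and a glucocorticoid-induced gene, rose by 0.96 (0.70 in WT). Mstn, myostatin, a brake on muscle growth picked out after its values were seen, rose from 7.58, 8.12 and 7.87 to 28.1, 17.8 and 24.2 (1.44 ± 0.37, adjusted p = 0.0094). Its WT means were 19.9 and 22.9, close to the 20w KO values.

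Clock genes moved in both directions. Of 19 genes of the core clock and its output 5 rose and 5 fell (4 and 0 in WT). Cry1, a repressor of the clock, went from 433, 483 and 385 to 170, 242 and 241 (-1.0 ± 0.13, adjusted p = 2.9e-05), and Per2, another, from 746, 741 and 666 to 371, 475 and 543 (-0.65 ± 0.12, adjusted p = 0.001). Nr1d1, the repressor REV-ERB alpha, rose from 346, 162 and 303 to 731, 603 and 460 (1.19 ± 0.23, adjusted p = 0.0013), and Bhlhe41 rose by 0.75. Arntl (BMAL1), picked out after its values were seen, rose from 19.4, 12.2 and 12.1 to 59.6, 28.2 and 35.6 (1.40 ± 0.29, adjusted p = 0.002). No overlap was seen in any of these. Cry1, Per2, Nr1d1 and Arntl did not pass in WT, and the differences between the genotypes had adjusted p of 0.14, 0.11, 0.49 and 0.15. The 5 lower calls became 3 without the third 4w KO library or the first 20w KO library.

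Hormone and transcription factor lists are read against shares of 9.48% higher and 9.81% lower over all genes. Of 23 corticosteroid receptor and glucocorticoid-induced genes 4 (17.4%) rose and 1 fell (4 and 1 in WT), with 3 lower without the second 20w KO library and 2 without the third. Hsd11b1, which makes active corticosteroid, rose by 0.90, and Tsc22d3 (GILZ) fell from 3221, 3431 and 3054 to 1642, 2041 and 2362 (-0.70 ± 0.13, adjusted p = 0.00068). Of 31 nuclear receptors and coregulators 3 (9.68%) rose and 1 fell (11 and 1 in WT), with 1 higher without the second 4w KO library and 2 lower without the third 4w or the second 20w KO library. Esrrg, an estrogen-related receptor of oxidative metabolism, rose by 0.47 and the retinoic acid receptor Rarb fell by 0.45. Of 13 Krüppel-like factors Klf13 fell by 0.42 and 0 rose (3 rose and 0 fell in WT), and 2 fell without the second 20w KO library. Of 21 cardiac transcription factors Gata4 rose by 0.27 and 0 fell (4 and 1 in WT). The call of Gata4 was lost without any 4w KO library or without the second or the third 20w KO library (adjusted p up to 0.15), and without the second 20w KO library 4 of the list fell.

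Shisa3, the gene in the study's title, stood at 59, 64.9 and 69.8 at 4w and at 68.1, 78.4 and 124 at 20w in KO. The ages overlapped, the third 20w library was the highest, and the test was not passed (0.43 ± 0.31, adjusted p = 0.37). WT means were 54.4 and 39.8, and the difference of the changes was 0.76 (adjusted p = 0.53). Its relative Shisa6 rose by 2.21 in KO and by 2.57 in WT, and the KO call was lost without the libraries with more than 1% Rn45s (adjusted p = 0.067). Among 14 Wnt/beta-catenin targets 1 (7.14%) rose and 2 (14.3%) fell (2 and 3 in WT), beside 9.48% and 9.81% over all genes. Wisp1, a secreted matricellular target, fell from 154, 270 and 202 to 53.6, 92 and 75.5 (-1.49 ± 0.25, adjusted p = 0.00033). Of 24 Wnt ligands, receptors and antagonists 4 (16.7%) fell and 0 rose (4 fell and 1 rose in WT). Those that fell in KO were Dkk3 (-0.56), Ror1 (-0.53), Ryk (-0.25) and Wif1 (-0.58). The calls of Ryk and Wif1 did not survive the omission of several single libraries (adjusted p up to 0.15). With a common total 0 of the list were called, and 2 fell without the second 4w KO library.

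Excitation genes gave as many higher as lower calls. Of 39 ion channel and calcium handling genes 7 (17.9%) rose and 7 (17.9%) fell (13 and 6 in WT), beside 9.48% and 9.81% over all genes. Kcne1, an accessory subunit of the slow delayed rectifier, fell from 229, 213 and 295 to 46.8, 66.9 and 69.8 (-2.00 ± 0.15, adjusted p = 6.4e-08). Casq1, skeletal calsequestrin, fell from 275, 442 and 359 to 82.6, 121 and 123 (-1.71 ± 0.18, adjusted p = 2.4e-06). Kcnv2, a modifier subunit of potassium channels, rose from 57.3, 50.7 and 51.9 to 278, 214 and 104 (1.77 ± 0.26, adjusted p = 9.6e-05). The ages were apart in all of them. Kcna5 fell by 0.70. Of 14 adrenergic receptor and kinase genes 3 (21.4%) rose and 3 (21.4%) fell (4 and 1 in WT). Adra1a, an alpha-1 adrenergic receptor, rose from 311, 260 and 269 to 1031, 851 and 547 (1.49 ± 0.24, adjusted p = 0.00021), and the receptor kinase Grk5 rose by 0.63. The 3 lower calls of the adrenergic list became 1 without the second 4w KO library or the first 20w KO library, and 0 with a common total.

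Of 35 interferon and antigen presentation genes 5 rose and 11 fell (8 and 6 in WT). The 5 were Gbp6 and the class II genes H2-Eb1, H2-Aa, Cd74 and H2-Ab1. H2-Aa went from 166, 195 and 212 to 430, 346 and 463 (1.10 ± 0.18, adjusted p = 0.00021). The 11 that fell were Isg15, Ifi44, Ifit1, Ifi27l2a, Irf7, Rsad2, Oasl2, Bst2, Ifit3, Gbp3 and Irf9. Isg15, picked out after its values were seen, went from 51.4, 28.4 and 30.4 to 15.3, 9.4 and 24.2 (-1.17 ± 0.40, adjusted p = 0.044). That call was lost without any KO library other than the third of 20w (adjusted p up to 0.18). The lower count was 2 without the first 4w KO library, 5 without the third, 4 without the second 20w KO library and 1 with a common total. The higher count was 5 or 6 whichever KO library was left out.

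Of 26 complement and cytokine genes 6 (23.1%) rose and 2 (7.69%) fell (6 and 4 in WT). C3, the central complement component, stood at 1038, 621 and 694 and then at 2280, 2185 and 2151 (1.53 ± 0.32, adjusted p = 0.002). Cxcl14 stood at 39.6, 48.7 and 37.8 and then at 158, 173 and 132 (1.86 ± 0.32, adjusted p = 0.00038). The ages did not overlap. C4b rose by 1.32 and the eosinophil chemokine Ccl11 by 1.95. WT rose as well, by 1.43 for C3, 1.79 for Cxcl14, 0.95 for C4b and 2.06 for Ccl11. The KO call of C3 was lost without the libraries with more than 1% Rn45s. The 2 that fell, C1qa (-0.54) and C1qb (-0.51), are also macrophage markers, and C1qa lost its call without the third 4w or the first 20w KO library (adjusted p up to 0.076). Of 20 macrophage markers these 2 (10%) fell and 0 rose (12 fell in WT), a share close to the 9.81% over all genes. The 2 became 1 without the third 4w or the first 20w KO library and 0 with a common total, and the list's sum went from 6085 to 6465 at 4w to 5251 to 5875 at 20w. Lymphocyte markers summed to 38.5 to 134 at 4w and 46 to 74.1 at 20w. Their part in the immune genes was not tested.

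Of 23 immediate early genes 3 (13%) rose and 0 fell, beside 9.48% and 9.81% over all genes. In WT 5 rose and 1 fell, and edgeR called 5 higher and 0 lower in KO. Egr1, a zinc finger factor induced within minutes of a stimulus, went from 265, 187 and 129 to 328, 1063 and 1486 (2.11 ± 0.51, adjusted p = 0.0059). The first 20w KO library stood well below the others, and the change was 2.75 without it. WT rose by 2.29 for Egr1, where the first 20w WT library, at 1751, stood far above the others, at 308 and 428. The KO call of Egr1 was lost without the libraries with more than 1% Rn45s (adjusted p = 0.057). Cyr61, a matricellular protein, rose from 496, 450 and 414 to 1887, 1169 and 2122 (1.89 ± 0.28, adjusted p = 8.2e-05). The higher count was 7 without the first 20w KO library and 2 without the first 4w, the third 4w, the second 20w or the third 20w library. Of 38 vascular growth and hypoxia genes 1 (2.63%) rose, Figf (vascular endothelial growth factor D, 1.38), and 5 fell (13.2%, beside 9.81% over all genes). In WT 4 of that list rose and 3 fell. The 5 that fell in KO were Apln (apelin, -0.79), its receptor Aplnr (-0.66), Pgf (-0.66), Notch1 (-0.29) and Tie1 (-0.27). The 5 became 3 without any 4w KO library and 2 without the first 20w KO library, and Aplnr lost its call without the third 4w KO library (adjusted p = 0.059).

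Of 15 cardiomyocyte markers 3 rose and 0 fell (2 and 2 in WT), led by Csrp3 (muscle LIM protein), which went from 11622, 12457 and 13032 to 15680, 18495 and 24319 (0.63, adjusted p = 0.00051). Their summed level was 2845038 to 2988762 at 4w and 3157295 to 3361010 at 20w. The 3 became 1 without the first 4w, the second 20w or the third 20w KO library. Of 15 endothelial markers 4 fell by at most 0.32 and 0 rose (3 fell and 1 rose in WT). With a common total 0 were called. The count was 1 without the first 4w KO library and likewise 0 without the third 4w, the first 20w or the third 20w KO library. Smooth muscle and pericyte markers gave 3 higher (23.1%) and 1 lower (7.69%) of 13 (1 and 2 in WT), beside 9.48% and 9.81% over all genes. Of them 1 was higher without the first 4w or the third 20w KO library. Atrial markers gave 0 higher and 1 lower of 11 (9.09%, beside 9.81% over all genes). Of the atrial markers 2 fell without the second 20w KO library, and in WT 7 rose and 0 fell (median 0.55, beside -0.16 in KO). All 3 tested erythroid genes fell in KO and also in WT (medians of -1.84 and -1.86). In KO Alas2, of heme synthesis, stood at 536, 394 and 397 and then at 197, 257 and 315. The listed globin genes were at 0 in all KO libraries. The call of Alas2 was lost without the first 20w KO library (adjusted p = 0.051). Ncam1 fell by 1.16 and was the only called gene of 8 nerve markers. Wt1 fell by 0.69 among 7 epicardial markers, a call lost without the second 20w KO library (adjusted p = 0.054), and Tnni2 fell by 1.23 among 4 skeletal muscle markers. The call of Tnni2 was lost without any 4w KO library or the first 20w KO library (adjusted p up to 0.23), and the change was -0.72 without the latter. No adipocyte marker of 2 and no lymphocyte marker of 3 passed the test.

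The KO and WT changes were then set side by side. The 2 contrasts share no library. Across the 13032 genes the log2 changes had a Pearson r of 0.70 and a Spearman rho of 0.62, as a description over genes that are not independent and that share the normalization. In WT 3273 genes (25.1%) were called. Both contrasts called 1478 genes, 1472 of them in the same direction, which was 58.6% of the KO calls and 45% of the WT calls. Of the 2514 KO calls, 2355 had the same sign in WT. The 6 genes called in opposite directions were Lmod3, Met, Clmp and B230354K17Rik, which rose in KO and fell in WT, and Kcna6 and Gm10635, which fell in KO and rose in WT.

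**Figure D4:**
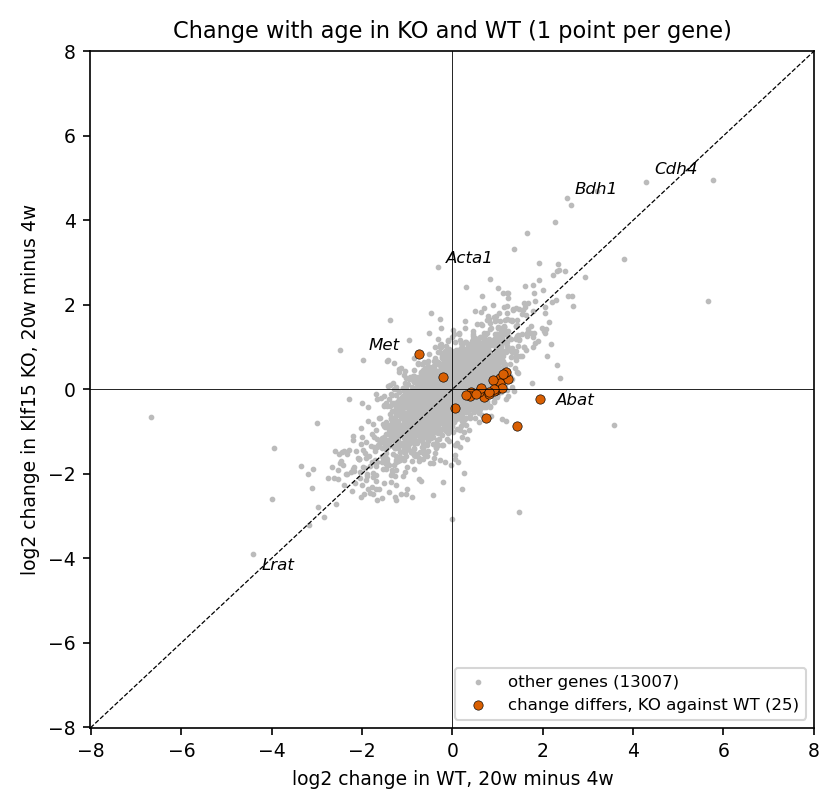
Log2 change from 4w to 20w in KO (vertical) against that in WT (horizontal), 1 point per gene, with the line of equal change dashed. The 25 genes whose change differed between the genotypes are coloured, and most lie to the right near a KO change of 0.

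The test of the difference between the changes called 25 genes (0.192%). In 2 (0.0153%) the KO change was the more positive and in 23 (0.176%) the more negative. WT rose in 22 of the 23, whereas in KO 2 rose and 3 fell. The mean of 4w WT was the lowest of the 4 groups in 19 of the 23, and in 17 all 4w WT libraries lay below all 9 other adult libraries. The count depended on single libraries. It was 3 without the first 4w KO, the third 20w KO, the second 4w WT, the second 20w WT or the third 20w WT library. It was 6 without the second 4w KO, the first 20w KO or the first 4w WT library, 8 without the first 20w WT library and 113 without the second 20w KO library.

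Abat, GABA transaminase, which breaks down the transmitter GABA in mitochondria, was the 1 named gene of 9 whose difference passed under every alternative. In KO it stood at 39.6, 46.7 and 42.5 at 4w and at 34, 39.7 and 35.6 at 20w. In WT it stood at 139, 182 and 181 and then at 659, 602 and 646. WT rose and KO did not pass the test, and all KO libraries were below all WT libraries. The difference was -2.16 ± 0.21 on the log2 scale (adjusted p = 2.3e-05), and -2.27 to -1.92 over the alternatives.

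Pcbp2, an RNA-binding protein, stood at 1487, 1481 and 1273 and then at 1317, 1492 and 1273 in KO, where WT went from a mean of 813 to 1524 (difference -0.96, adjusted p = 0.0022). Ubqln2, a ubiquitin-like shuttle protein, stood at 431, 404 and 366 and then at 393, 428 and 382, where WT went from 248 to 470 (-0.92, adjusted p = 0.0022). In both the KO ages overlapped and the 4w WT libraries stood below the other 9. The chromatin and transcription regulators Kmt2d (-1.07) and Spen (-0.90), the translation factor Eif1 (-0.99) and the lipid droplet enzyme Hsd17b11 (-0.90) had the same sign of difference and did not pass in KO. Polr2a, the largest subunit of RNA polymerase II, named here after its values were seen, rose in both, by 0.42 in KO and 1.19 in WT.

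Met, the receptor of hepatocyte growth factor, was the more positive in KO. It stood at 36.2, 42.6 and 54 and then at 70.6, 69 and 98.3 (0.83 ± 0.21, adjusted p = 0.0084), while WT fell from a mean of 75.4 to 43 (difference 1.57, adjusted p = 0.039). Lmod3, a leiomodin of thin filaments, stood at 2130, 1990 and 2065 and then at 2626, 2458 and 2467 (0.29 ± 0.07, adjusted p = 0.0059), while WT fell from 2192 to 1905 (difference 0.49, adjusted p = 0.045). The KO ages did not overlap in either gene. For Met 1 of the 3 WT libraries at 4w, at 108, stood above the other two, at 57.2 and 61.5.

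**Figure D5:**
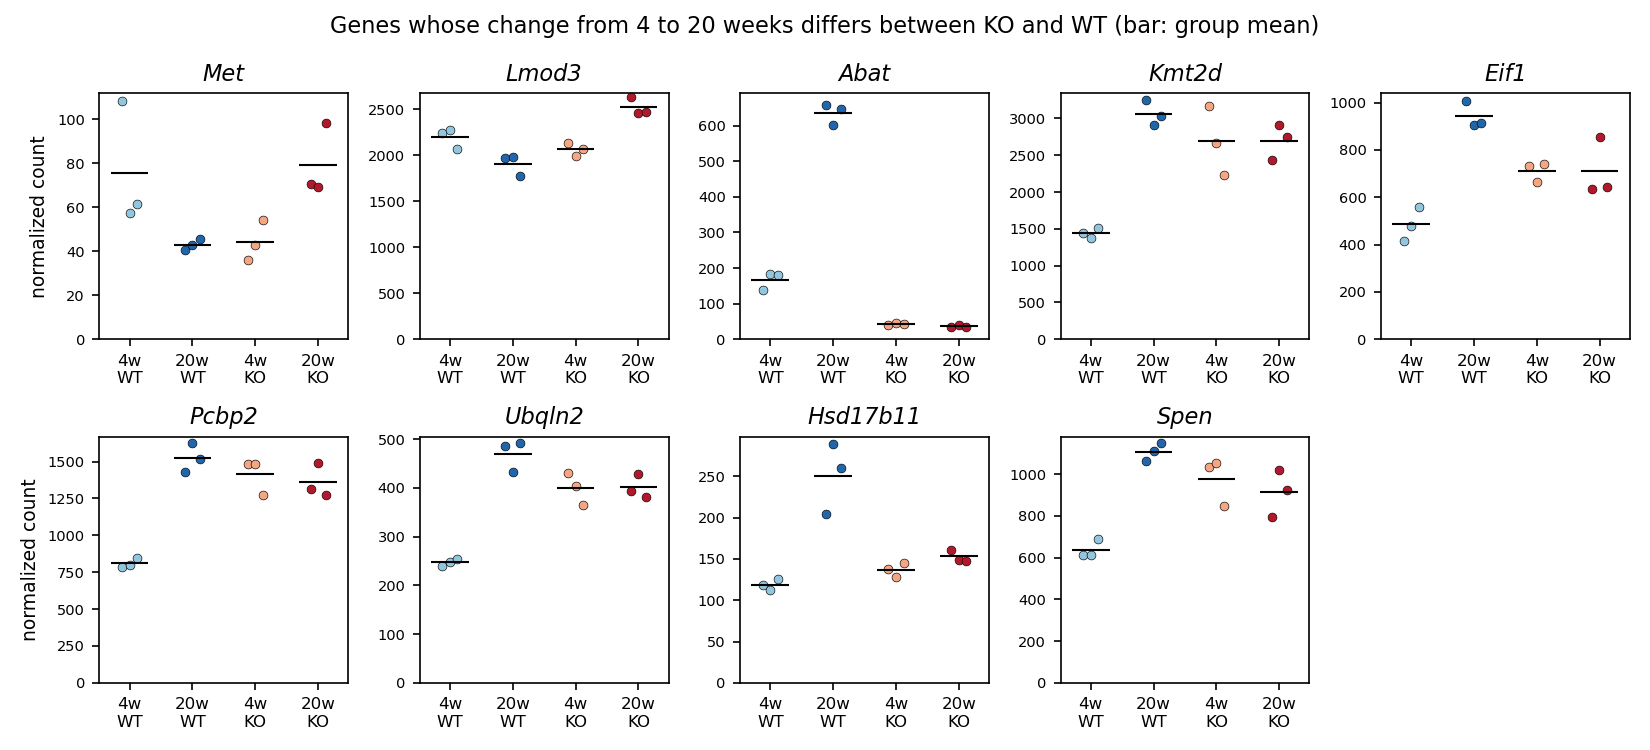
Normalized count in each library (points) and group mean (bar) of the 9 named genes whose change from 4w to 20w differed between KO and WT. For Kmt2d, Eif1, Pcbp2, Ubqln2 and Spen the 4w WT libraries lie below the other 3 groups, and for Abat both KO groups lie below both WT groups.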

How the data were processed

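Ventricular RNA of 6 groups (3 libraries each) was sequenced. Each deposited value is a normalized signal: the authors divided a gene's count by the library's DESeq2 size factor, per the name of the deposited table. Bowtie2 2.0, mm9 and DESeq2 are named in the submitters' processing notes, with no role or order. The sources used here do not give the counter, its strand setting or the annotation. Whole reads were recovered for 100.0% of values (tolerance 0.001 reads).

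One limma 3.58.1 model (R 4.3.3) of 6 group means, with a mean trend, was fitted to log2(value + 1) of genes with a mean of at least 10 over all 18 libraries, day 10 included, which understates changes of low genes. Two-sided p-values were adjusted by Benjamini-Hochberg over 13032 genes and called under 0.05. edgeR 4.0.16 and DESeq2 1.42.0 on recovered reads, other scalings, filters and pseudocounts, library weights, a replicate block and leaving out libraries were alternatives. List counts under them were added after the data were seen. The fit was tested on simulated data. The 27 entries with names turned into dates were not interpreted.

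Members and the 48 gene lists were chosen with earlier results of these data known. Genes named are Klf15 and Shisa3, the 12 highest and 12 lowest called KO changes with a mean of at least 50 and ages apart, up to 4 called members per list by adjusted p (otherwise up to 2 as values), and up to 8 genes per direction for the difference, without gene models. Complete sets of called members are named too, and Polr2a and 9 other genes were picked after their values were seen. Myom3, Flnc, Pdlim5, Myom1, Cdk1 and Hspb6 are called members named outside the rule, and their single calls were not followed under the alternatives. Some results that this rule gives are not reported here.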

Additional observations from a re-analysis of the deposited data

Results flagged for a closer look

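The 9 named genes below stood out because their change from 4w to 20w differed between KO and WT in the test of that difference (limma, Benjamini-Hochberg adjusted over 13032 genes). Values are the KO change minus the WT change on the log2 scale. They were 1.57 for Met (adjusted p = 0.039) and 0.49 for Lmod3 (adjusted p = 0.045), where KO rose and WT fell. They were -2.16 for Abat (adjusted p = 2.3e-05), -1.07 for Kmt2d (adjusted p = 0.039), -0.99 for Eif1 (adjusted p = 0.047), -0.96 for Pcbp2 (adjusted p = 0.0022) and -0.92 for Ubqln2 (adjusted p = 0.0022). Hsd17b11 and Spen had -0.90 each (both adjusted p = 0.039). Abat kept its call under every alternative, Ubqln2 lost it with a common total and Pcbp2 lost it with a common total or without the libraries with more than 1% Rn45s. The other 6 lost it under 12 to 15 of the alternatives run. Groups of 3 libraries are too small for a test of outlying samples.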

How the results depend on the processing

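Of 166 called genes within the naming rule or picked later, 107 kept their call under every alternative, 59 lost it under some and 0 reversed. The common total of a library included Rn45s, which took 30.8% of the second 4w KO library. With a common total, 1219 genes were called in KO, 1771 in WT (22.9% of them higher, against 53% with the authors' size factors) and 12 for the difference (10 more positive in KO). The median log2 change of all genes was then 0.086 in KO, -0.156 in WT and 0.243 for the difference, beside -0.009, -0.017 and 0.008 with the authors' size factors, and directions are relative to it. Without the libraries with more than 1% Rn45s, which left 2 per group, the counts were 1652, 1750 and 5. The difference gave 7 genes with no filter, 15 with edgeR, 157 with DESeq2, 64 with the adult libraries alone and 90 with library quality weights. Leaving out 1 library at a time gave 1844 to 2411 genes in KO, 2348 to 2880 in WT and 3 to 113 for the difference. The causes were not tested.

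Same-numbered KO libraries of the ages deviated together with r of 0.17, 0.03 and -0.05. Such values over 3 libraries cannot tell whether equal numbers stand for a shared step. The second library had the highest Rn45s share in each adult group, 30.8% and 1.7% in KO and 1.74% and 2.72% in WT. With the replicate block 1855 genes were called in KO, 3398 in WT and 19 for the difference. Depth, 9504538 reads in the shallowest library, and 3 libraries per group limit what could be called among low genes. The 10606562 reads of the second 4w KO library include its Rn45s share. There 1 read stood for a normalized count of 2.03, the largest step of the 18 libraries.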
